A study of Mus musculus with 4 samples.

Results

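The conjugation enzymes of mouse liver were described across 4 treatment groups of a double-exposure study of ethylbenzene, an aromatic solvent. They are the glutathione S-transferases (Gsta, Gstk, Gstm, Gsto, Gstp, Gstt, Gstz and the membrane-bound Mgst genes), the UDP-glycosyltransferases (Ugt1a, Ugt2a, Ugt2b and Ugt3a) and the sulfotransferases (Sult). Every gene of the array annotation whose symbol begins with one of these family names and a digit was taken. This gave 46 genes with a probe set of their own out of 18193 such genes: 23 glutathione S-transferases, 10 UDP-glycosyltransferases and 13 sulfotransferases. A further 5 probe sets list several family symbols at once and were kept as units of their own. Of the 46 genes, 36 had a mean signal at or above the median of all probe sets and are called measured below, and so were all 5 shared probe sets. The 10 genes under that level are given separately, and no count over the 36 speaks for them.

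These enzymes attach a water-soluble group to a foreign or endogenous compound, often after cytochrome P450 has oxidised it, as it does ethylbenzene in liver. Glutathione S-transferases join glutathione to electrophiles. Glucuronosyltransferases transfer glucuronic acid from UDP-glucuronate and sulfotransferases transfer sulfate from the donor PAPS, both mainly to hydroxyl groups, and transporters then carry the products out of the cell.

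All mice were C57BL/6J and 2 months old. The first exposure was ethylbenzene at 7 mmol per kg, or an equal volume of phosphate-buffered saline (PBS), given into the peritoneal cavity in 2 injections 24 h apart. The second exposure, to ethylbenzene at the same dose or to PBS, came after 7 days on normal feed, and livers were taken 5 h after it. Group P+P received PBS both times and E+P received ethylbenzene and then PBS, with 3 mice each. Group P+E received PBS and then ethylbenzene and E+E received ethylbenzene both times, with 5 mice each. Liver RNA was pooled within each group and 10 µg of each pool was labelled for 1 Affymetrix array. There were thus no replicates: every ratio below compares 2 arrays, no test or error could be given, and the number of arrays limits the precision. The smaller pools were those given PBS last, so pool size and the second exposure cannot be told apart.

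The deposited signals had a mean of 500 on every array once the lowest and highest 2% were removed. Their medians ran from 129.9 to 153.1. All 9 measured hepatocyte markers passed the signal filter, and their summed signal lay between 860760 and 894971 on the 4 arrays. This sum uses quantile-normalized signals, which gave every array the same maximum of 187493. A level sum of strong genes therefore does not show level hepatocyte content. Single markers moved both ways, with log2 second-exposure ratios of 0.55 and 0.65 for Tat and -0.50 and -1.10 for Pck1. Pancreatic acinar markers moved with the second exposure: 8 of 9 were higher by 2-fold or more in each arm, with summed signals of 3031 (P+P), 2638 (E+P), then 8264 (P+E) and 8422 (E+E), and 5, 6, 0 and 0 of the 9 below the filter level. Summed neutrophil markers were 1340, 774, 4075 and 6595 in the same order, with 2, 4, 4 and 2 of 8 below that level. S100a8 (3.29 and 3.62 as log2 second-exposure ratios) and S100a9 (3.62 and 4.83) made up most of this difference. Ngp, Camp, Mpo and Ltf were lower in P+E against P+P (-0.89, -1.51, -1.41 and -1.10). In E+E against E+P they were not lower (1.33, 0.06, 0.05 and 1.49), and Mpo and Ltf did not pass the filter. With signals below the filter level set to that level, the first ratios were -0.69 for Camp, -0.33 for Mpo and -0.47 for Ltf. The second ratios were then 0 for Mpo and Ltf and 4.30 for S100a9. Summed Kupffer cell markers were 17897, 27509, 15898 and 18158, with 10 of 10 higher in E+P against P+P (median 0.64) and 10 of 10 lower in E+E against E+P (median -0.57). Signal for 18S ribosomal RNA was 1872 on the P+P array and between 122 and 182 on the others, so that ratios against P+P rest on the array that stands apart. The part of these differences in the results was not tested. In bulk liver RNA, fewer cells of a type and less RNA per cell cannot be told apart.

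The effect of the second exposure was read as a ratio in each of 2 arms. Where the first exposure was PBS, it is P+E against P+P. Where the first exposure was ethylbenzene, it is E+E against E+P, and no array enters both. Values are log2 ratios of quantile-normalized signals after adding 43.2 to each, a scale that understates differences of weak genes. A difference of at least 2-fold was used as a rule of size. In mice given PBS first, 4 of the 36 measured genes were at least 2-fold higher after ethylbenzene (Gstt3, Sult1a1, Gstm3 and Gstm2), beside 6.54% of all 11513 measured genes. In the same ratio 2 were at least 2-fold lower (Ugt2b38 and Gstt2), beside 6.7%. In mice given ethylbenzene first, 2 were at least 2-fold higher (Gstt3 and Gsta2), beside 6.91%, and 2 were at least 2-fold lower (Gstt2 and Ugt2b37), beside 6.74%. Gsta2 and Ugt2b37 sat at the limit, with log2 ratios of 1.01 and -1.0. Only Gstt3 was at least 2-fold higher in both ratios, beside 2.87% of all genes, and only Gstt2 at least 2-fold lower in both, beside 1.86%. Within 1.5-fold in both ratios were 20 of the 36 (55.6%), beside 52.9% of all genes, which is near the background.

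A finer reading asks whether both arrays taken after ethylbenzene lay on the same side of both taken after PBS. They lay above for 9 of the 36 genes (25%), beside 22.3% of all genes. They lay below for 18 (50%), beside 31.1%. With arrays scaled to a common 75th percentile these lower genes were 22 of 36 (61.1%), beside 33.9% of all genes, and the higher ones again 9. The enzyme classes differed in these counts. Of the 20 measured glutathione S-transferases, 8 were higher and 5 lower on both arrays. Of the 10 measured UDP-glycosyltransferases, 0 were higher and 10 lower, and of the 6 measured sulfotransferases 1 was higher and 3 lower. With the 75th percentile scaling the glutathione S-transferases had 8 higher and 8 lower. The UDP-glycosyltransferases then again had 0 and 10, and the sulfotransferases 1 and 4. The median log2 ratios were 0.07 and 0.04 for glutathione S-transferases, -0.54 and -0.44 for UDP-glycosyltransferases and -0.18 and -0.45 for sulfotransferases, in mice given PBS first and ethylbenzene first. The medians over all genes were -0.07 and -0.05.

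**Figure D1:**
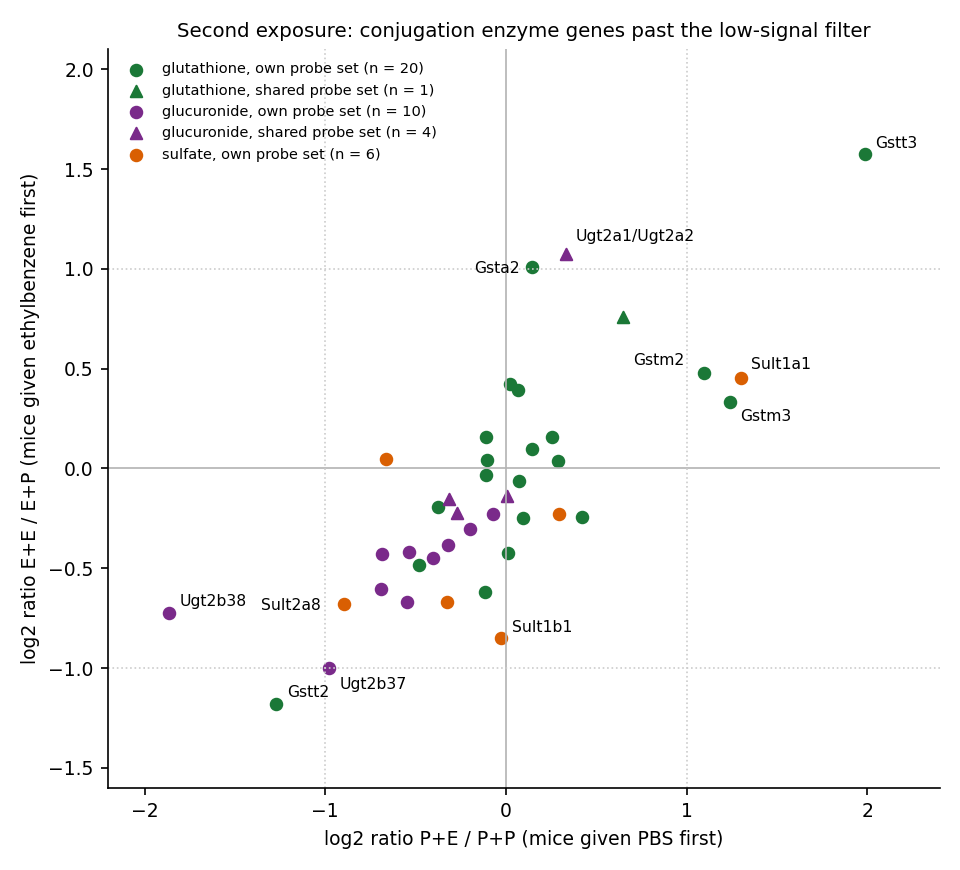
Log2 ratio of the second exposure in mice given PBS first (horizontal axis) against that in mice given ethylbenzene first (vertical axis) for the 41 measured units; circles are genes with a probe set of their own, triangles shared probe sets, and dotted lines mark 2-fold. Gstt3 lies far to the upper right and Gstt2 to the lower left, while the purple circles of the glucuronide class all lie below 0 on both axes.

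The theta class held Gstt3, the highest of the 36 measured genes in both ratios, and Gstt2, the lowest of them in E+E against E+P; in P+E against P+P Ugt2b38 was lower still. Theta-class glutathione S-transferases act on small electrophiles such as halogenated hydrocarbons. Gstt3 had signals of 1711 (P+P), 2029 (E+P), then 6901 (P+E) and 6130 (E+E). Both arrays of mice given ethylbenzene in the second exposure were thus far above both of mice given PBS, with log2 ratios of 1.99 (3.96-fold) and 1.57 (2.98-fold). Gstt2 showed the reverse, with signals of 3576, 3569, 1457 and 1553 in the same order. Its log2 ratios were -1.27 and -1.18, and the first exposure alone left it level (-0.00). Gstt1 was slightly higher on both ethylbenzene arrays, at 8926, 9492, 10651 and 10590 (0.25 and 0.16). The fourth theta gene, Gstt4, was below the filter level on every array, with a highest signal of 105. In the RefSeq gene order, Gstt3, Gstt1, Gstt4 and Gstt2 are direct neighbours on chromosome 10, so the gene that was higher and the gene that was lower lie within one run of 4.

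Among mu-class enzymes, which conjugate a wide range of electrophiles, Gstm3 and Gstm2 stood out. Gstm3 had signals of 9931 (P+P), 13663 (E+P), then 23522 (P+E) and 17217 (E+E). The P+E array was highest and the second-exposure ratio was 1.24 after PBS but 0.33 after a first ethylbenzene exposure. A second Gstm3 probe set gave the same order, with 1435, 2356, 4754 and 3269 (1.70 and 0.46). Gstm2 was again highest on P+E, at 1362, 1435, 2961 and 2014 (1.10 and 0.48). For both genes the E+E array lay above both PBS arrays and below P+E, by 0.45 for Gstm3 and 0.55 for Gstm2 on the log2 scale. Gstm1, whose signal ranked near the top on every array, read 84661, 84661, 93525 and 90456 (0.14 and 0.10). With the signals as deposited its ratios were 0.34 and 0.27, and the other 3 Gstm1 probe sets did not agree in direction, from -0.75 to 0.01 in the first ratio and from -0.02 to 0.42 in the second. The remaining mu genes (Gstm4, Gstm5, Gstm6 and Gstm7) lay between -0.12 and 0.07 in the first ratio and between -0.62 and 0.39 in the second. The second Gstm7 probe set gave -0.60 and -0.31, against -0.12 and -0.62 for the one used. These 7 genes form an unbroken run on chromosome 3. Mu-class sequences are close to one another, so their probe sets may share signal.

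In the alpha class, whose enzymes reduce lipid peroxides and conjugate many drugs, Gsta2 had signals of 2295 (P+P), 1825 (E+P), then 2541 (P+E) and 3714 (E+E). It was highest on E+E, with a ratio of 1.01 in mice given ethylbenzene first and of 0.14 in mice given PBS first. The probe set shared by Gm3776, Gsta1 and Gsta2 read 6193, 5333, 9726 and 9043, higher after ethylbenzene in both arms (0.65 and 0.76). Gsta1 had no probe set of its own. Gsta4, which conjugates the lipid peroxidation product hydroxynonenal, was lower (-0.38 and -0.19). For Gsta3 the probe set used gave 0.29 and 0.04 and its second probe set -0.08 and -0.08, so the direction depended on the probe set.

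Gstp1, the pi-class enzyme, had signals of 146400 (P+P), 137392 (E+P), then 104856 (P+E) and 98313 (E+E). Both ethylbenzene arrays were lower, by -0.48 and -0.48 on the log2 scale after quantile normalization, but by -0.29 and -0.19 with the signals as deposited and by -0.36 and -0.22 with the 75th percentile scaling. Gstp3 gave 531, 450, 726 and 374, with no common order (0.42 and -0.24). The single measured kappa, omega and zeta genes stayed close to level: Gstk1 at 0.07 and -0.06, Gsto1 at -0.11 and 0.04, and Gstz1, an enzyme of tyrosine breakdown, at 0.09 and -0.25. The membrane-bound Mgst1, at 132377, 127430, 122547 and 124495 (-0.11 and -0.03), is counted among the 5 lower glutathione S-transferases, but its direction turned with the scaling, to 0.10 and 0.26 with the signals as deposited. Its second probe set also lay above 0 (0.36 and 0.57). Mgst3 gave 0.02 and 0.42 and is counted among the 8 higher ones, though its sign in the first ratio turned with the scaling. A weak second Mgst3 probe set, with 244, 28.5, 35.9 and 19.8, did not follow the first. Of the 41 measured units, 32 kept their sign in both second-exposure ratios under all 3 scalings. The 9 others were Gstk1, Gstm4, Gstm5, Gsto1, Gstz1, Mgst1, Mgst3, Sult5a1 and 1 of the shared Ugt1a probe sets, so no direction is drawn for them.

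**Figure D2:**
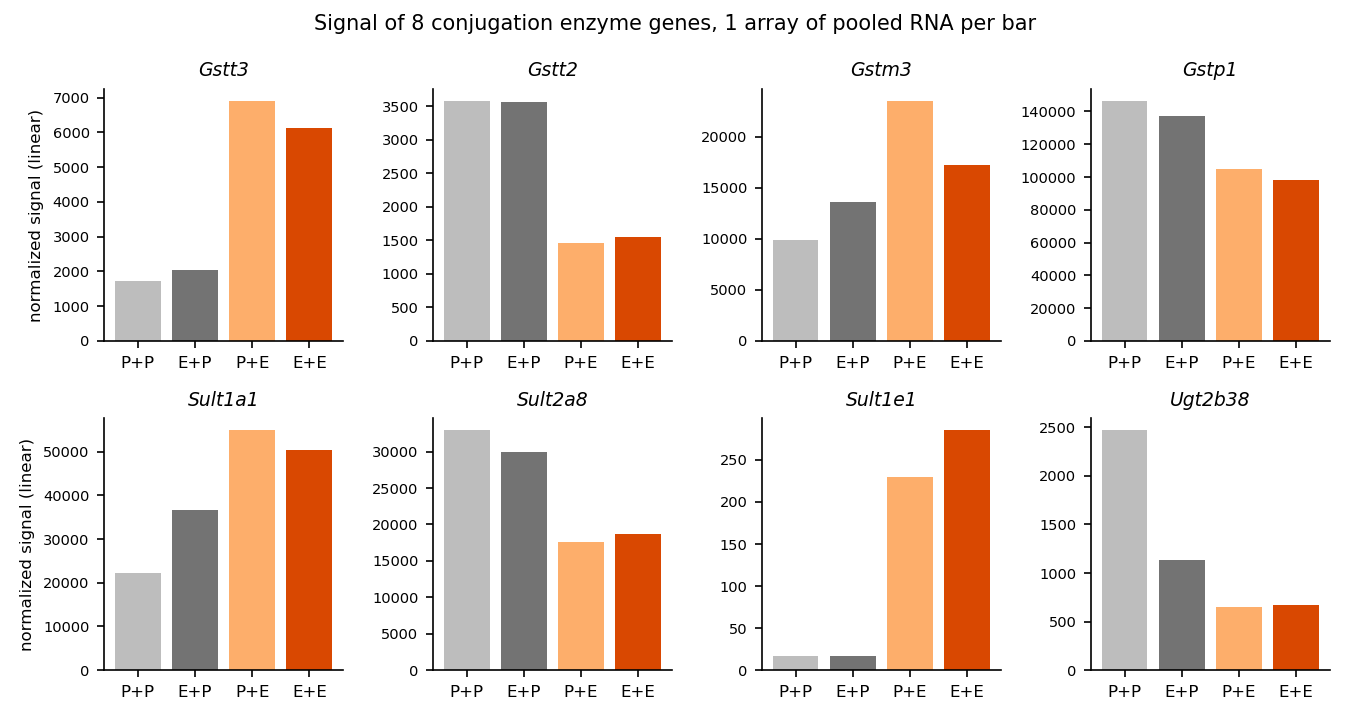
Quantile-normalized signal (linear scale from 0, a scale of its own in each panel) of 8 conjugation enzyme genes, with 1 bar for the single pooled array of each group. Gstt3, Gstm3, Sult1a1 and Sult1e1 are higher on the P+E and E+E arrays, and Gstt2, Gstp1, Sult2a8 and Ugt2b38 are lower.

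All 10 measured UDP-glycosyltransferase genes were lower in both second-exposure ratios, with ratios from -1.86 to -0.07 in the first arm and from -1.0 to -0.23 in the second. The 7 Ugt2b genes, which encode liver glucuronosyltransferases for steroids, bile acids and phenols, had median log2 ratios of -0.69 and -0.60. All 7 were below 0 in both ratios under each of the 3 scalings tried. As in the mu class, probe sets of such related genes may share signal, so these may not be 7 separate readings. How far they share signal was not tested. Ugt2b38 had signals of 2469 (P+P), 1138 (E+P), then 648 (P+E) and 673 (E+E). Its P+P array was highest, and the second-exposure ratios were -1.86 after PBS and -0.72 after ethylbenzene. Ugt2b37 read 403, 326, 183 and 141 (-0.98 and -1.0), lower by about the same amount in both arms. Ugt2b5 read 86654, 80711, 53709 and 53133 (-0.69 and -0.60, or -0.52 and -0.44 with the signals as deposited). Ugt2b1 read 43774, 36974, 27179 and 27419 (-0.69 and -0.43). In both genes the 2 arrays of each second exposure lay closer to each other than to the other pair. Ugt2b34, Ugt2b35 and Ugt2b36 lay between -0.55 and -0.40 in the first ratio and between -0.67 and -0.42 in the second. The second Ugt2b34 probe set was lower by less (-0.22 and -0.28).

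Ugt2a3, another glucuronosyltransferase, was lower by similar amounts (-0.32 and -0.39). Ugt3a1 (-0.07 and -0.23) and Ugt3a2 (-0.20 and -0.30), whose enzymes are known to use other sugars than glucuronic acid, were lower by little. For Ugt3a1, a second probe set lay slightly above 0 (0.06 and 0.11). The Ugt1a enzymes, which handle bilirubin and many drugs, share the last exons of one gene locus, and their 3 probe sets each list 8 symbols, Ugt1a1 among them. Those probe sets read 39592, 37306, 31797 and 33585 (-0.32 and -0.15), 52582, 50270, 43571 and 43106 (-0.27 and -0.22) and 25376, 25982, 25430 and 23588 (0.00 and -0.14). The Ugt1a isoforms therefore cannot be told apart here. The probe set shared by Ugt2a1 and Ugt2a2 was weak, at 116, 60.7, 157 and 176. Its ratio of 1.08 in mice given ethylbenzene first became 0.42 when signals below the filter level of 120 were set to that level.

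**Figure D3:**
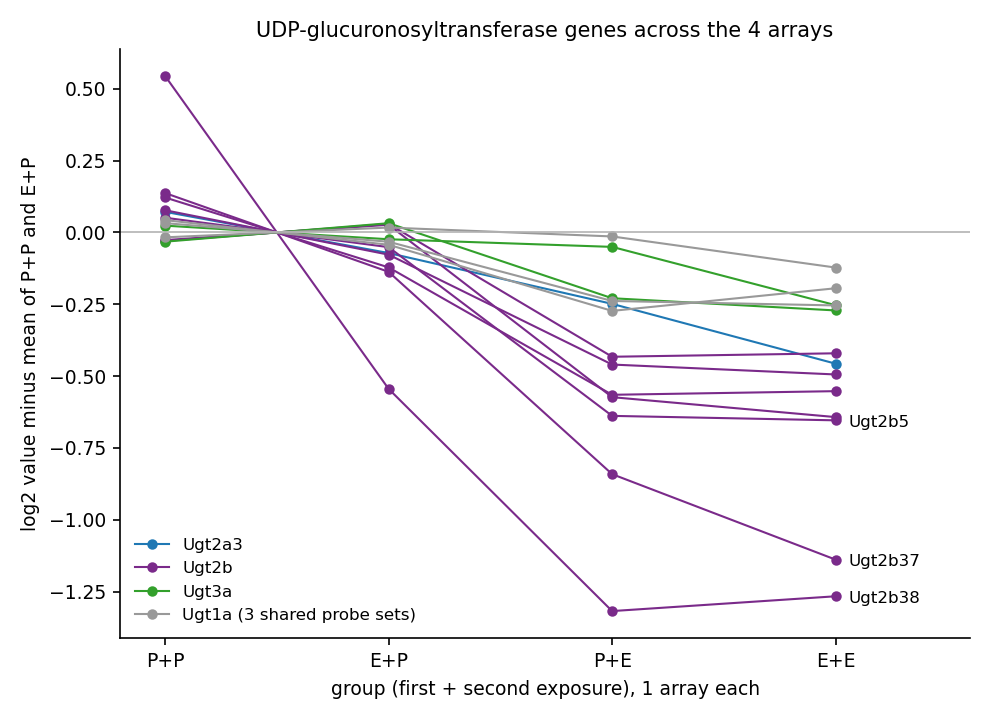
Log2 value of each measured UDP-glycosyltransferase unit minus its own mean over P+P and E+P (vertical axis) on the array of each group (horizontal axis); each line is 1 probe set, and the weak probe set of Ugt2a1 and Ugt2a2 is not drawn. All purple Ugt2b lines lie below 0 on P+E and E+E, Ugt2b37 and Ugt2b38 lowest, and only Ugt2b38 is far apart between P+P and E+P.

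The Ugt2b genes lie side by side on chromosome 5, in a run of 13 family genes in the RefSeq order Ugt2b34, Ugt2b1, Ugt2b35, Ugt2b36, Ugt2b5, Ugt2b37, Ugt2a3, Ugt2b38, Ugt2a1, Ugt2a2, Sult1b1, Sult1d1 and Sult1e1. The run did not move as one, since Sult1e1 at its end was higher after ethylbenzene. Because the Ugt2b genes were lower together, the 100 bases directly before the start of each are shown, 5′ to 3′ on the gene's strand, from RefSeq (GRCm38.p6). Capitals mark AGGTCA or its reverse complement, the half-site bound by many nuclear receptors.
Ugt2b5 (chr5:87140341-87140440, minus strand): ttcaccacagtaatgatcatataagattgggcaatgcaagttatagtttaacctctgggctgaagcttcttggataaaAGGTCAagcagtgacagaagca
Ugt2b36 (chr5:87092556-87092655, minus strand): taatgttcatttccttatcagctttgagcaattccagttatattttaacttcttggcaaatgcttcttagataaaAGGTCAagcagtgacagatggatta
Ugt2b37 (chr5:87254789-87254888, minus strand): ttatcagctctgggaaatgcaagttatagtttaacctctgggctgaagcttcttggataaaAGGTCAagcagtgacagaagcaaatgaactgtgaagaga
Ugt2b38 (chr5:87424204-87424303, minus strand): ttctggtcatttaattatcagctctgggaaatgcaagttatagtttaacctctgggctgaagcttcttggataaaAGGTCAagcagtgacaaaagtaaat
Ugt2b1 (chr5:86926504-86926603, minus strand): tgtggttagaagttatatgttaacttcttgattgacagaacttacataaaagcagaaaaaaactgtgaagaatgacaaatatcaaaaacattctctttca
Ugt2b34 (chr5:86906938-86907037, minus strand): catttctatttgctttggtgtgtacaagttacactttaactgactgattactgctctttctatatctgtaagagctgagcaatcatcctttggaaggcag
Ugt2b35 (chr5:87000760-87000859, plus strand): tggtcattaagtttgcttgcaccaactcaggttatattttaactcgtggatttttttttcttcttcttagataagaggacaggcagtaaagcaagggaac

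Ugt2b5, Ugt2b36, Ugt2b37 and Ugt2b38 share an identical stretch of 22 bases, gataaaAGGTCAagcagtgaca, whose AGGTCA begins 22, 25, 39 and 25 bases before the start. The stretch was taken as the longest run shared by these 4. That no other promoter in the table of 32851 holds it is therefore no separate result. The Ugt2b35 half-site begins 215 bases before the start, outside the bases shown. Over the 250 bases before the start, both strands searched, AGGTCA occurred in 5 of 7 Ugt2b genes (71.4%). It occurred in 8 of the 33 measured members found in the table (24.2%) and in 15.8% of 27025 genes. These 8 include the same 5 Ugt2b genes, and the others were Gstk1, Sult1b1 and Sult2a8. The share over the members is therefore not separate from that of the Ugt2b genes. The Ugt2b matches are not independent, since those of 4 genes lie in the shared stretch. The 4 genes with the stretch and the 3 without it were all lower in both second-exposure ratios. With it were Ugt2b5 (-0.69 and -0.60), Ugt2b36 (-0.54 and -0.42), Ugt2b37 (-0.98 and -1.0) and Ugt2b38 (-1.86 and -0.72). Without it were Ugt2b1 (-0.69 and -0.43), Ugt2b34 (-0.40 and -0.45) and Ugt2b35 (-0.55 and -0.67). Whether the stretch goes with the size of the ratio was not tested. TGACNNNGC, the core of the antioxidant response element bound by NRF2, occurred in 4 of the 33 members (Gsta3, Gstm5, Gstm7 and Mgst1; 12.1%) and in 11.5% of all genes. Its letters can overlap those of AGGTCA read on the other strand. GCGTG, the core bound by the aryl hydrocarbon receptor, occurred in 8 (24.2%), beside 30.9% of all genes. Another nuclear receptor half-site, AGTTCA, occurred in 4 members (12.1%, beside 13.4% of all genes). The HNF1 half-site GTTAAT occurred in 5 (Gsta3, Sult1a1, Sult1d1, Ugt2a3 and Ugt3a1; 15.2%, beside 7.49%), the STAT5 element TTCNNNGAA in 1 (Gstm6; 3.03%, beside 8.13%) and the TATA box letters TATAAA in 5 (15.2%, beside 14.3%). Gstt3, Gstm2 and Gstm3 held none of these 7 motifs in this window. A match describes letters and not binding. The absence of a match says nothing of sites elsewhere, or of variants of these letters inside the window.

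Sulfotransferases differed among themselves. Sult1a1, which sulfates phenols, had signals of 22298 (P+P), 36771 (E+P), then 54943 (P+E) and 50437 (E+E). It was lowest on P+P and highest on P+E, with second-exposure ratios of 1.30 and 0.46. Sult2a8, a hepatic sulfotransferase that acts on bile acids, was lower on both ethylbenzene arrays, at 32937, 30006, 17663 and 18727 (-0.90 and -0.68). Sult2a1 had no probe set in the annotation used. Sult1c2 read 379, 411, 293 and 243 (-0.33 and -0.67). Sult1b1, which sulfates thyroid hormones, was lower on E+E than on the other arrays, at 1559, 1831, 1531 and 998 (-0.03 and -0.85). Sult1d1, known for catecholamines, read 5906, 6670, 7260 and 5686 (0.30 and -0.23), and 2807, 4057, 4779 and 4038 on its second probe set (0.76 and -0.01). Sult5a1 read 934, 735, 575 and 762 (-0.66 and 0.05). Neither gene had a common order in the 2 arms.

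Of the 10 genes below the filter, 7 were sulfotransferases. Sult1e1, which inactivates estrogens, gave 17.0 (P+P), 16.9 (E+P), then 230 (P+E) and 285 (E+E). Both PBS arrays were below the filter level of 120 and both ethylbenzene arrays above it, so the signal was at least 1.92-fold higher in the arm given PBS first and at least 2.38-fold higher in the other. Sult3a1 moved the same way but stayed below the level on every array (4.52, 2.97, 57.3 and 65.2). Sult4a1 went the other way, from 150 and 203 to 40.2 and 38.5. Its second probe set read between 6.81 and 10.1 on all arrays, too low to give a ratio. The others, Sult1c1, Sult2a2, Sult2b1, Sult6b1, Gsto2, Gstt4 and Mgst2, exceeded the level on at most 1 array each and give no direction.

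Few members differed 2-fold by the first exposure, 7 days before. Counts this small cannot set the 36 measured genes apart from all genes. In E+P against P+P, 1 of the 36 measured genes was at least 2-fold apart, Ugt2b38, which was lower (-1.09), beside 5.31% of all genes. In E+E against P+E there were 0, beside 7.96%. The values closest to 2-fold in the first of these ratios were Sult1a1 at 0.72 and Gstm3 at 0.46, and in the second Gstp3 at -0.88 and Sult1b1 at -0.60. For Sult1a1 and Gstm3 the first-exposure ratio was positive where the second exposure was PBS and negative where it was ethylbenzene (-0.12 and -0.45). These comparisons share arrays with the second-exposure ratios, so a high or low P+P or P+E array enters both.

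The genes that supply, extend or regulate conjugation were read from 7 lists. For comparison, the share of all 11513 measured genes past 2-fold in both arms was 2.87% upward and 1.86% downward. With 10 to 15 measured genes per list, a count of 0 or 1 cannot set a list apart from these shares. Whether any list differs from them was not tested, so the genes named below are single genes and do not describe their lists. Of 15 measured genes for glutathione synthesis and recycling, 1 passed 2-fold upward in both arms and 1 downward, with list medians of 0.35 and 0.23. The higher one was Chac1 (932, 1110, 2942 and 5078; 1.61 and 2.15) and the lower one Chac2 (1655, 1499, 467 and 580; -1.74 and -1.31), both of which are known to break glutathione down and not to make it. Of 11 genes for mercapturate formation, the further processing of glutathione conjugates, 1 was higher in both, the gamma-glutamyltransferase family gene Ggt6 (1.43 and 1.38), and 0 lower, with medians of -0.08 and -0.29. Of 10 genes for UDP-glucuronate supply and glucuronide hydrolysis 0 passed 2-fold in either ratio, with medians of -0.34 and -0.08. The 2 with the largest mean ratios were Pgm2, which interconverts sugar phosphates (0.98 and 0.75), and Ugp2, which makes UDP-glucose. Ugp2 read 27824, 28055, 16854 and 15628 (-0.72 and -0.84), so both ethylbenzene arrays were lower. Ugdh of the same list had no common direction (-0.43 and 0.11).

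Of 12 genes for sulfate and PAPS supply and sulfatases, 1 was higher in both, the PAPS transporter gene Slc35b3 (1.17 and 1.96), and 0 lower, with medians of 0.04 and -0.28. Of 14 other conjugation enzymes 1 was higher in both and 1 lower, with medians of -0.29 and -0.33. They were Nnmt, which methylates nicotinamide (2.01 and 1.84), and Keg1, a glycine N-acyltransferase family gene (23479, 17594, 3352 and 4990; -2.79 and -1.81). Of 13 transporters of conjugates and organic anions 0 passed in both, with medians of -0.16 and -0.55. The rule names Abcc5 (1.34 and 0.49) and Abcc1 (-1.35 and -0.22), each with a signal below the filter level on 1 array. With such signals set to that level their ratios were 1.17 and 0.49 for Abcc5 and -0.75 and -0.22 for Abcc1, and Slc22a7 (-0.87 and -0.66), Slco1b2 (-0.81 and -0.62), Slco1a1 (-0.77 and -0.62) and Abcg2 (-0.75 and -0.60) then had lower means than Abcc1.

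Of 15 measured regulators 1 passed 2-fold upward in both arms and 1 downward, with medians of -0.35 and -0.17. As for the other lists, these counts do not set the regulators apart from the shares over all genes (2.87% and 1.86%). Ahr, the aryl hydrocarbon receptor, read 1299, 1429, 4000 and 4128 (1.59 and 1.5). Ppara, the fatty acid receptor, read 4614, 5402, 2069 and 1828 (-1.14 and -1.54). Other regulators known to induce conjugation genes, picked after their values were seen, had no common direction. Nr1i3, which encodes the receptor CAR, was lower (-0.85 and -1.45), as was Nfe2l2, which encodes NRF2 (-0.61 and -0.49). Nr1i2, which encodes the receptor PXR, read 596, 1170, 1705 and 1202, higher in the arm given PBS first (1.45 and 0.04). Mafk, which encodes a partner of NRF2, was higher in both (1.0 and 1.5), while Mafg of the same list was lower (-0.35 and -1.07).

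**Figure D4:**
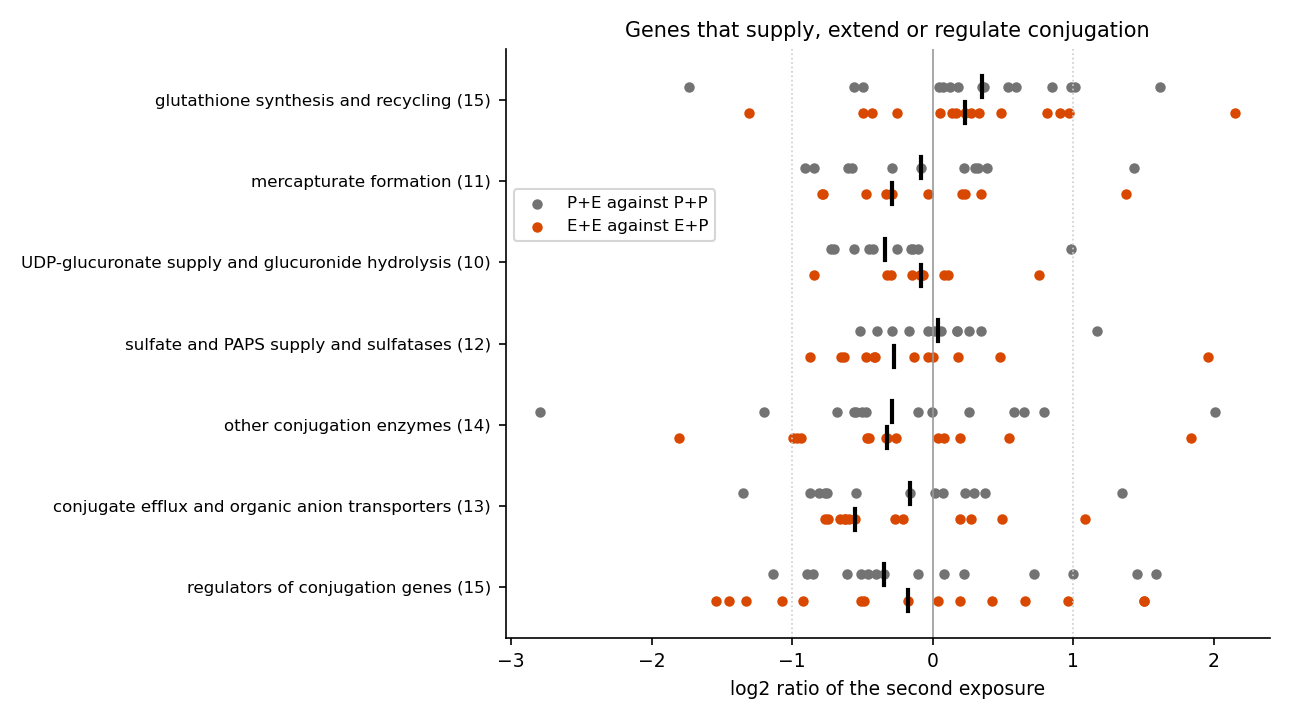
Log2 second-exposure ratios (horizontal axis) of the measured genes of 7 lists (rows, number of genes in brackets), grey for P+E against P+P and orange for E+E against E+P; black bars are list medians and dotted lines mark 2-fold. The medians stay between -0.55 and 0.35, and single genes such as Chac1 and Keg1 lie far outside.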

How the data were processed

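Gene expression was measured on 4 Affymetrix arrays, 1 per pooled group. The authors deposited intensities: linear probe set signals, 45101 per array. Their equal trimmed mean shows a scaling by the authors; the software that summarised the probes was not given in the sources used here. As the median log2 signals lay 0.24 apart, over the limit of 0.1, quantile normalization across all 4 arrays was applied, followed by log2(signal + 43.2), where 43.2 is the 25th percentile of deposited signals. Probe sets were named from the platform annotation (34945 with 1 symbol, 932 with several, 9160 with none, 64 controls). Of those with 1 symbol, 34741 were matched to RefSeq (GRCm38.p6, used for current names, gene order and promoters). The array names no genome build. A gene is its probe set with the highest mean log2 signal. The filter was a signal of 120, and 11513 genes passed. Where a signal was lower, a fold called at least so large is a lower bound taken against that level. Log2 ratios use the signal itself unless stated otherwise.

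Members, gene lists and rules were chosen with earlier results of these data known. Full values are given for members at least 2-fold apart in a ratio, the 2 highest and 2 lowest of each class and 9 set genes; for lists, genes past 2-fold in one direction in each second-exposure ratio, or else the 2 of largest mean ratio. Promoter entries matched 41 of the 46 genes. The steps were tested on simulated arrays. Python 3.11.15, numpy 2.4.6, pandas 2.3.3 and matplotlib 3.10.9 were used. Alternatives covered scaling, pseudocount, filter, floor, probe sets and the rule of size.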

Additional observations from a re-analysis of the deposited data

Results flagged for a closer look

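Ugt2b38 stood out because its first-exposure ratio differed between mice given PBS and mice given ethylbenzene in the second exposure. It was lower in E+P against P+P (-1.09) and level in E+E against P+E (0.05), so the second ratio exceeded the first by 1.14 on the log2 scale. With 1 array per group this difference was not tested, and it rests on the P+P signal of 2469 beside 1138, 648 and 673 on the other arrays.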

How the results depend on the processing

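No count has a test, and with 1 array per group leaving out a replicate was not possible. No paired analysis was possible because each group has 1 pooled array. Medians over the 36 members moved by no more than 0.1 in the alternatives run. Counts were small and moved with the rules. Without the filter (46 genes) the counts at least 2-fold higher were 7 (P+E against P+P), 5 (E+E against E+P) and 3 (both), the lower ones 4 (E+E against E+P) and 2 (both), and those apart by first exposure 3 (E+E against P+E) and 5 (E+P against P+P). A 1.5-fold rule gave 7 lower in P+E against P+P, 9 in E+E against E+P and 5 in both, and 2 apart in each first-exposure ratio. In E+E against E+P, 1 gene instead of 2 was higher with deposited signals, the 75th percentile scaling, a pseudocount of 120 or no probe sets with a suffix, and 1 instead of 2 lower with deposited signals, the 75th percentile scaling or filter, a pseudocount of 120 or normalization without P+P. A pseudocount of 16 gave 2 genes lower in both, and the mean over probe sets gave 2 apart in E+P against P+P. All 12 single-member ratios kept their sign in 108 alternatives, and 99 stayed at least 2-fold. The 9 exceptions were Gsta2 (0.94 to 0.98), Ugt2b37 (-0.99 to -0.77), Gstm2 (0.99) and the probe set of Ugt2a1 and Ugt2a2 (0.42). Part of the 108 could not differ from the main value, so these counts overstate how far the ratios were tried. A change of filter alters only which units pass, and a mean over probe sets leaves a unit with 1 probe set as it was. Settings under which a unit failed the filter or had no probe set left are not among the 108. All 10 UDP-glycosyltransferase genes stayed below 0 in both ratios, except Ugt3a1 without suffixed probe sets (9 of 10).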
